A study of Sorghum bicolor with 64 samples.

Results

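The 9 sorghum genes described here are assigned to starch breakdown, as starch phosphorylases, other enzymes or a maltose exporter. They were chosen by identifier for that function, at a time when earlier results of these data were known: phosphorylase a (*Sobic.001G083900*) and phosphorylase b (*Sobic.003G358600*), glucan water dikinase (*Sobic.010G143500*), phosphoglucan water dikinase (*Sobic.004G120100*), a glucan phosphatase (*Sobic.001G538800*), alpha-amylase A (*Sobic.003G276400*), alpha-amylase B (*Sobic.006G063600*), a maltose exporter (*Sobic.006G204400*) and DPE2 (*Sobic.002G407000*). All 9 are among the 18832 genes listed in the stem or the leaf table, and each is in both tables. RNA was sequenced from field-grown near-isogenic lines in the Tx623 background, *DD* plants with a functional *SbNAC074A* and *dd* plants with a truncated copy. Heads were cut off at anthesis (head removal) or left on (control), and samples came 3 or 10 d later from internode 4, counted downwards and without its green outer layer, and from the central stretch of the second leaf, the flag leaf not counted. Genotype, treatment and day make 8 groups in each organ, labelled as biological replicates. Stem groups held 3 or 4 samples (29 in all) and leaf groups 3 (24 in all). A pair of near-isogenic lines stands for the 2 genotypes, so that any other difference between those lines goes with the *D* locus here.

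Starch is stored in plastids as granules of glucose chains too densely packed for most enzymes. In leaves of Arabidopsis, where the route is best known, glucan water dikinase and then phosphoglucan water dikinase put phosphate groups on the chains at the granule surface, amylases and debranching enzymes cut the loosened chains, and a glucan phosphatase takes the phosphate off again. Maltose leaves the plastid through the maltose exporter and is processed in the cytosol by DPE2 and a cytosolic phosphorylase, while plastidial phosphorylase splits glucose 1-phosphate from chain ends, a reaction that can also run towards chain growth.

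Values are TPM, a share of all transcripts that allows for gene length, so that genes can be compared with each other. A change is a difference of log2(TPM + 1) ± SE from limma, in an additive model of the 3 factors fitted on every gene of the organ, and a gene rose or fell if its adjusted p (Benjamini-Hochberg over all genes of the organ) was under 0.01. TPM holds no record of sequencing depth, and precision comes only from the spread between replicates. In bulk tissue, fewer cells of a type and less RNA per cell cannot be told apart.

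The organs differed in their markers as labelled. Light harvesting and photosystem genes summed to between 3221 and 14268 TPM in the 29 stem samples and between 35926 and 80072 TPM in the 24 leaf samples, without overlap. C4 and Rubisco genes summed to 893 to 1923 TPM in stems and 13948 to 36962 TPM in leaves. These sums cover the genes listed in each table, which are not all the same. Sums of secondary wall genes, 534 to 1502 TPM in stems and 259 to 735 TPM in leaves, overlapped. Stem *dd* control 10 d replicates 3 and 4 lay on the side of the head-removed samples on the first principal component, *DD* head removal 3 d replicate 4 lay among the controls on it, and leaf *DD* head removal 3 d replicates 2 and 3 lay apart from replicate 4 on that of the leaves.

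In control stems the phosphorylases had the highest medians of the 9 genes. Phosphorylase b had a median of 136 TPM (71.4 to 339, n = 15), and phosphorylase a followed with 73.4 TPM (36.4 to 213). Glucan phosphatase (57.6 TPM), glucan water dikinase (56.6 TPM), DPE2 (50.8 TPM) and alpha-amylase B (39.0 TPM) had the next medians, in an order that their ranges do not separate. The range of phosphorylase a overlapped all of theirs. Phosphoglucan water dikinase (10.96 TPM), the maltose exporter (6.98 TPM) and alpha-amylase A (3.29 TPM) were the lowest. Control leaves had another order, with DPE2 (84.9 TPM) and glucan phosphatase (81.9 TPM) at the top, phosphorylase a at 39.5 TPM, and phosphorylase b at 23.9 TPM. No test was made between levels of the organs, whose tables were filtered separately.

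Head removal raised both phosphorylases, glucan water dikinase and DPE2 in stems and lowered glucan phosphatase and alpha-amylase B, while phosphoglucan water dikinase and the maltose exporter did not pass the test. Alpha-amylase A passed as lower, but it was listed in stems only through its controls, so that its fall supports nothing here. Of the 9 genes 4 rose, against 14.4% of all 16942 stem genes, and 3 fell, alpha-amylase A included, against 23.5%. The median change of the 9 was 0.07, and that of all stem genes was -0.06. The same 4 up and 3 down, alpha-amylase A again included, were counted without *dd* control 10 d replicates 3 and 4.

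Phosphorylase a, annotated as alpha-glucan phosphorylase 1, changed most. In *DD* stems at 3 d its 4 control samples held 82.4, 73.4, 42.8 and 68.3 TPM and its 4 head-removed samples 160.4, 157, 107 and 182 TPM. At 10 d the *DD* controls held 115, 36.4 and 74.1 TPM and the head-removed stems 165, 395 and 104.6 TPM. Head-removed *DD* stems lay above all *DD* controls at 3 d, and at 10 d only the sample at 104.6 TPM fell within the range of its controls. In *dd* stems the controls at 3 d held 44.4, 45.3, 110.4 and 213 TPM, against 169, 145 and 252 TPM with the head removed. At 10 d the *dd* controls held 73.0, 57.8, 96.9 and 104 TPM, against 429.9, 582, 564 and 252 TPM. The 2 *dd* groups overlapped at 3 d, where control replicate 4 lay inside the range of the head-removed samples, and stood well apart at 10 d. Over all stems the rise was 1.58 ± 0.24, or 2.99-fold (adjusted p = 5.65e-06). Of the 14 head-removed stems 6 exceeded every control, and 8 lay inside the range of all 15 controls, which reached 213 TPM.

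Phosphorylase b, annotated as the cytosolic form, rose less, by 0.68 ± 0.16 or 1.60-fold (adjusted p = 0.00100). Its 15 control stems spanned 71.4 to 339 TPM with a median of 136 TPM, and its 14 head-removed stems 160.0 to 350.2 TPM with a median of 235 TPM. A single head-removed sample exceeded the highest control, *dd* control 3 d replicate 4. That sample was the highest of the 15 controls also for phosphorylase a, glucan water dikinase (68.5 TPM) and DPE2 (94.3 TPM).

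Glucan water dikinase, which starts granule breakdown by phosphorylating amylopectin chains, separated the treatments best. The *DD* controls held 62.0, 52.1, 38.5 and 47.3 TPM at 3 d and 66.5, 58.9 and 64.4 TPM at 10 d, and the head-removed *DD* stems 90.5, 98.6, 78.0 and 101 TPM at 3 d and 90.5, 133 and 59.2 TPM at 10 d. The *dd* controls held 51.1, 41.1, 56.6 and 68.5 TPM at 3 d and 58.3, 52.0, 48.6 and 61.6 TPM at 10 d, and the head-removed *dd* stems 88.0, 107 and 97.2 TPM at 3 d and 102, 100.1, 131 and 81.3 TPM at 10 d. Of the 14 head-removed stems 13 exceeded every control, and *DD* 10 d replicate 4 at 59.2 TPM was the exception. The rise was 0.79 ± 0.10, or 1.73-fold (adjusted p = 2.08e-07).

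Phosphoglucan water dikinase, which adds phosphate only after the first dikinase has acted, gave 0.07 ± 0.08 (adjusted p = 0.481), with 6.79 to 13.9 TPM in controls and 6.84 to 14.6 TPM after head removal. Glucan phosphatase, annotated as the chloroplastic DSP4 type, fell by 0.31 on the log2 scale (SE 0.05, adjusted p = 1.03e-05). Its controls spanned 49.5 to 65.4 TPM and its head-removed stems 37.0 to 55.5 TPM, with 9 of the 14 below every control. The phosphatase did not overlap between treatments in *DD* at either day or in *dd* at 10 d.

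Of the alpha-amylases, which cut inside glucose chains, alpha-amylase B fell by 0.28 (SE 0.07, adjusted p = 0.00227). It went from 32.0 to 55.8 TPM in controls to 26.8 to 41.1 TPM after head removal, and 7 of 14 head-removed samples lay below every control. With quantile normalization its call was lost (-0.21, adjusted p = 0.0113). Alpha-amylase A fell by 0.60 (SE 0.11, adjusted p = 1.02e-04), from a median of 3.29 TPM to 1.71 TPM. The authors kept genes above 3 TPM in at least 2 samples, and alpha-amylase A was above that level in 9 of 15 control stems and in 0 of 14 head-removed stems. It was thus listed through its controls alone, so its fall is not independent of the filter; the other 8 genes were above 3 TPM in all 29 stems.

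The 2 genes of the maltose route differed. DPE2, the cytosolic transglucosidase that takes glucose from maltose, rose by 0.45 ± 0.12, or 1.37-fold (adjusted p = 0.00212). Controls spanned 38.9 to 94.3 TPM and head-removed stems 47.2 to 114 TPM, with 12 of the 14 inside the control range. The maltose exporter gave 0.03 ± 0.11 (adjusted p = 0.823), and its head-removed samples, 3.41 to 10.2 TPM, spread to both sides of the controls, 4.81 to 8.52 TPM.

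**Figure D1:**
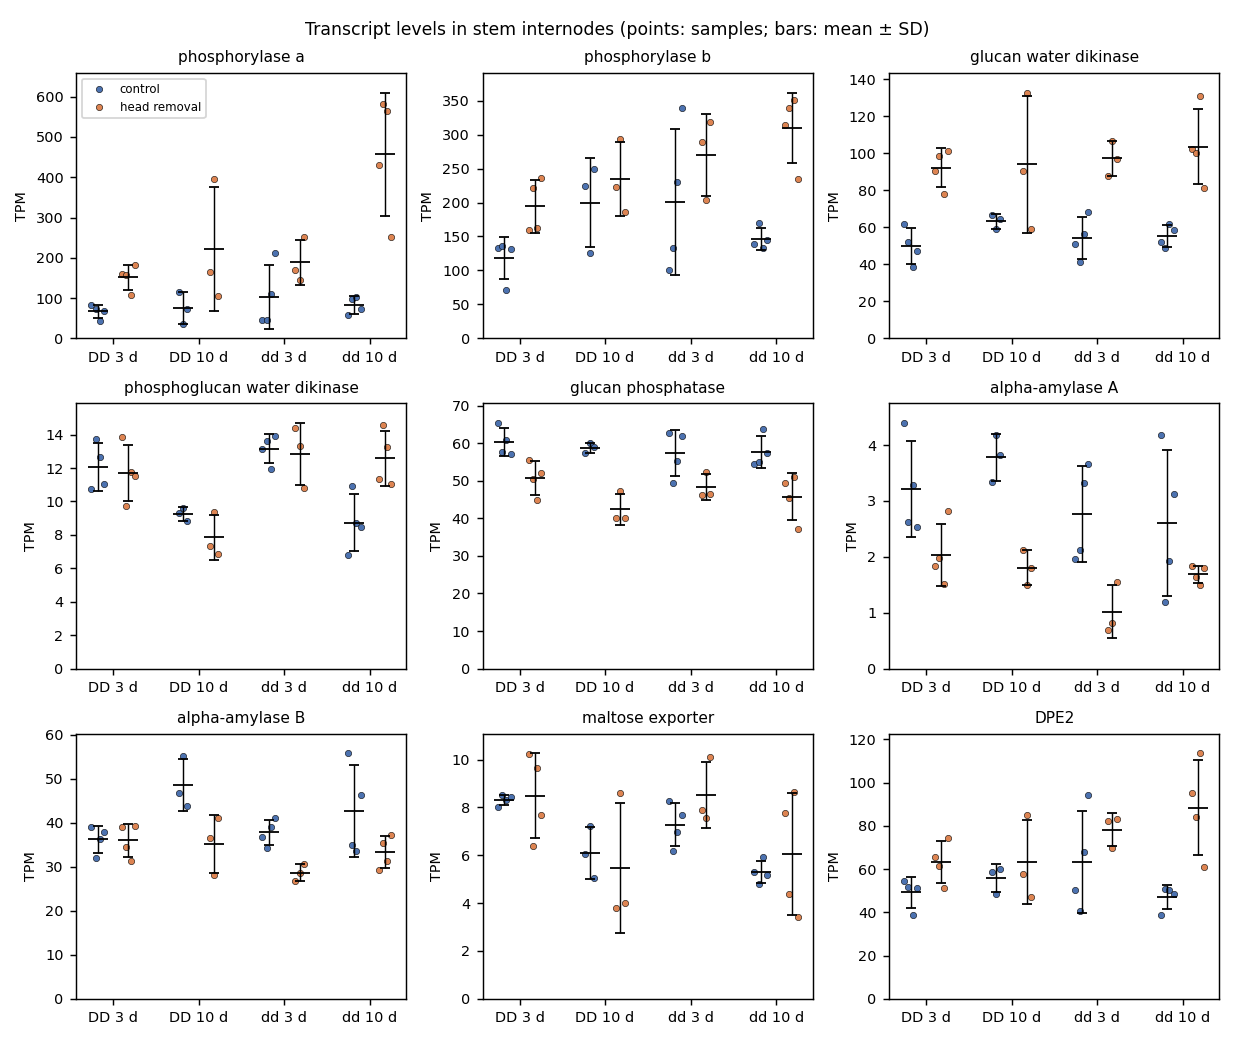
Transcript levels of the 9 genes in stem internodes, in TPM on axes that start at 0, by genotype and day. Points are samples (blue, control; orange, head removal) and bars are the mean ± SD of 3 or 4 samples; for glucan water dikinase 13 of the 14 head-removed samples lie above every control, while the maltose exporter overlaps.

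Other genes of starch metabolism were counted by their annotations. Further starch breakdown genes listed in stems numbered 14, of which 4 rose after head removal and 0 fell, with a median change of 0.21. They were isoamylase 1 (*Sobic.007G204600*, 1.62 ± 0.20, adjusted p = 3.80e-07) and isoamylase 2 (*Sobic.009G127500*, 0.80 ± 0.18), whose relatives in other cereals trim branches during granule synthesis, isoamylase 3 and a laforin-type phosphatase. No beta-amylase, the enzymes that release maltose, was among them. Of 10 starch synthesis genes 7 rose and 0 fell, with a median of 0.53, led by a large (*Sobic.001G100000*, 1.06 ± 0.14) and a small (*Sobic.002G160400*, 1.02 ± 0.11) subunit of ADP-glucose pyrophosphorylase. Light harvesting and photosystem genes moved with the treatment in the same stems: 37 of 52 rose and 1 fell, their sums ran from 3221 to 11472 TPM in controls and from 5778 to 14268 TPM after head removal, and none of the 52 was listed at 0 in any stem. The other leaf list, C4 and Rubisco genes, did not move one way: 4 of 16 rose and 3 fell, with a median of 0.11. Of 31 jasmonate and wounding genes 9 rose and 10 fell, with a median of -0.06. Beside these lists, 14.4% of all stem genes rose and 23.5% fell, with a median of -0.06. The part of green tissue or of the cut in the changes above was not tested.

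Within each genotype and day, head removal was compared in a model of 8 group means, with separate controls for each comparison. Glucan water dikinase rose in *DD* at 3 d (0.88 ± 0.19, adjusted p = 0.00775), in *dd* at 3 d (0.85 ± 0.20, adjusted p = 0.00472) and in *dd* at 10 d (0.88 ± 0.19, adjusted p = 0.00134), and gave 0.49 ± 0.22 in *DD* at 10 d (adjusted p = 0.0968). In *dd* stems at 10 d 5 of the 9 genes rose, against 1124 of all 16942 stem genes, and 0 fell, against 1334. In either direction 14.5% of all genes passed the test there. Besides glucan water dikinase these were phosphorylase a (2.41 ± 0.44, or 5.33-fold, adjusted p = 3.56e-04), phosphorylase b (1.06 ± 0.29, adjusted p = 0.00935), DPE2 (0.87 ± 0.21, adjusted p = 0.00422) and phosphoglucan water dikinase (0.49 ± 0.13, adjusted p = 0.00639). Glucan phosphatase gave -0.34 ± 0.09 in *dd* at 10 d and missed the test (adjusted p = 0.0104). With median-of-ratios scaling it passed there as a fall (adjusted p = 0.00662).

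Fewer members passed in the other combinations. In *DD* at 3 d 1 member passed, against 1.48% of all genes. In *DD* at 10 d it was glucan phosphatase alone (-0.46 ± 0.11, adjusted p = 0.00388), against 11.2% of all genes and only without median-of-ratios scaling (-0.34, adjusted p = 0.0124 with it), and in *dd* at 3 d glucan water dikinase and alpha-amylase A (-0.90 ± 0.23, adjusted p = 0.00854), against 10.6%. The calls of alpha-amylase A in single combinations carry the same limit from the filter as its fall over all stems. Phosphorylase a gave 1.19 ± 0.44, 1.47 ± 0.51 and 1.13 ± 0.48 in those 3 combinations, with adjusted p of 0.115, 0.0387 and 0.0867. Without *dd* control 10 d replicates 3 and 4, head removal in *dd* at 10 d gave -0.60 for alpha-amylase B (adjusted p = 0.00228) and -0.78 for alpha-amylase A (adjusted p = 0.00980), both past the test, and phosphorylase b no longer passed.

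**Figure D2:**
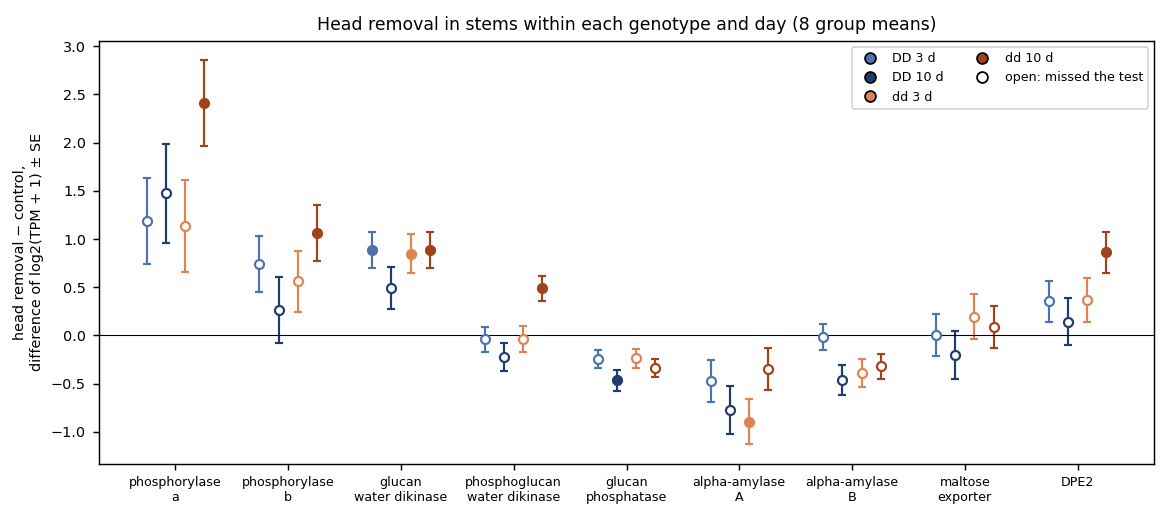
Change with head removal in stems for each genotype and day, as a difference of log2(TPM + 1) ± SE from the model of 8 group means (vertical axis), for the 9 genes. Filled points had an adjusted p under 0.01 and open points did not; phosphorylase a in *dd* at 10 d lies highest, at 2.41.

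Whether these effects differed between genotypes or days was tested by interactions, and 0 of the 9 genes passed any of the 4 with limma. Treatment by genotype passed in 0% of stem genes, treatment by day in 0.0472%, genotype by day in 0.00590%, and the interaction of all 3 factors in 0%. At an unadjusted p under 0.05 phosphoglucan water dikinase had a treatment by genotype term (0.36 ± 0.13) and a term of all 3 factors (0.71 ± 0.27), and no other member had any term at that level. All stem genes reached it at 6.92% for treatment by genotype, 14.1% for treatment by day, 10.6% for genotype by day and 9.85% for all 3 factors. For phosphorylase a the effect of head removal in *dd* minus that in *DD* was 0.44 ± 0.47 (adjusted p = 0.867), its effect at 10 d minus that at 3 d was 0.78 ± 0.47 (adjusted p = 0.471), and the term of all 3 factors was 0.99 ± 0.94 (adjusted p = 0.716). The larger rise in *dd* stems at 10 d was therefore not shown to differ from the rise in the other combinations.

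Genotype alone moved none of the 9 genes past the test in stems, against 17.8% of all genes past the test in either direction. With limma 3 members had an unadjusted p under 0.05, against 44.2% of all stem genes: phosphorylase a (0.53 ± 0.24 in *dd* against *DD*, adjusted p = 0.0912), phosphoglucan water dikinase (0.19 ± 0.08, adjusted p = 0.0667) and alpha-amylase A (-0.32 ± 0.12, adjusted p = 0.0363). Of the 10 starch synthesis genes in stems 5 were higher in *dd* and 0 lower, and of the 14 further breakdown genes 2 were higher and 2 lower. Over all 16942 stem genes 876 were higher in *dd* and 2144 lower. Genotype moved a starch synthase (*Sobic.010G047700*, 1.02 ± 0.17) and the pyrophosphorylase subunit *Sobic.009G245000* (0.73 ± 0.17) upward in *dd*. It moved the beta-amylases *Sobic.001G293800* (-0.76 ± 0.18) and *Sobic.001G372100* (-0.72 ± 0.12) downward.

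From 3 to 10 d, 2 of the 9 genes fell in stems, against 23.7% of all genes, and 0 rose, against 8.84%. Phosphoglucan water dikinase fell by 0.36 (SE 0.08, adjusted p = 7.75e-04) and the maltose exporter by 0.47 (SE 0.11, adjusted p = 0.00103). With quantile normalization the first missed the test (-0.27, adjusted p = 0.0143). Alpha-amylase B gave 0.18 ± 0.07 (adjusted p = 0.0495) and passed as a rise with median-of-ratios scaling (0.26), quantile normalization (0.26) and sample weights (0.23). In controls the maltose exporter held 8.03, 8.52, 8.30 and 8.43 TPM in *DD* at 3 d and 6.05, 7.22 and 5.04 TPM at 10 d, and 8.29, 6.19, 6.98 and 7.68 TPM in *dd* at 3 d and 5.17, 5.30, 4.81 and 5.94 TPM at 10 d. The days did not overlap among controls of either genotype. After head removal they did, since the stems at 10 d ran from 3.41 to 8.64 TPM. Other starch genes that changed with day were the beta-amylases *Sobic.001G226600* (-0.93 ± 0.25) and *Sobic.002G329400* (0.61 ± 0.17), the pyrophosphorylase subunit *Sobic.003G230500* (-0.71 ± 0.13) and the laforin-type phosphatase *Sobic.008G032300* (0.41 ± 0.06).

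In leaves head removal raised 1 of the 9 genes, phosphorylase a, by 0.80 ± 0.14 or 1.74-fold (adjusted p = 8.16e-04), against 4.32% of all 16386 leaf genes, and lowered 0, against 7.05%. The *DD* controls held 38.5, 21.1 and 29.7 TPM at 3 d and 55.8, 33.1 and 41.97 TPM at 10 d, and the head-removed *DD* leaves 90.5, 43.6 and 38.1 TPM at 3 d and 57.9, 62.0 and 56.0 TPM at 10 d. The *dd* controls held 20.1, 31.3 and 40.6 TPM at 3 d and 41.9, 40.6 and 55.7 TPM at 10 d, and the head-removed *dd* leaves 57.8, 49.1 and 53.9 TPM at 3 d and 83.9, 113 and 91.8 TPM at 10 d. The treatments overlapped only in *DD* at 3 d. Without *DD* head removal 3 d replicates 2 and 3 the rise was 0.71 (adjusted p = 0.00284).

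By adjusted p the maltose exporter came next in leaves with -0.27 ± 0.07 (adjusted p = 0.0124), and its head-removed leaves lay below their controls in every combination but *dd* at 10 d. Glucan water dikinase gave -0.22 ± 0.14 in leaves (adjusted p = 0.244), with 16.1 to 31.3 TPM in controls and 13.0 to 34.2 TPM after head removal. Among the other starch genes, isoamylase 1 rose (0.55 ± 0.13, adjusted p = 0.00369), and beta-amylase *Sobic.001G293800* (-0.79 ± 0.18) and the pyrophosphorylase subunit *Sobic.003G230500* (-0.51 ± 0.10) fell. Other lists also moved with the treatment in leaves: 4 of 35 jasmonate and wounding genes rose and 0 fell, with a median of 0.79, and their sums ran from 1347 to 3830 TPM in controls and from 1631 to 11253 TPM after head removal. Of these 35 genes 1 was listed at 0 in some leaf. Of 18 C4 and Rubisco genes 3 fell and 0 rose, and of 55 light harvesting and photosystem genes 0 passed. Beside these lists, 4.32% of all leaf genes rose and 7.05% fell, with a median of -0.02. The part of these lists in the rise of phosphorylase a was not tested.

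**Figure D3:**
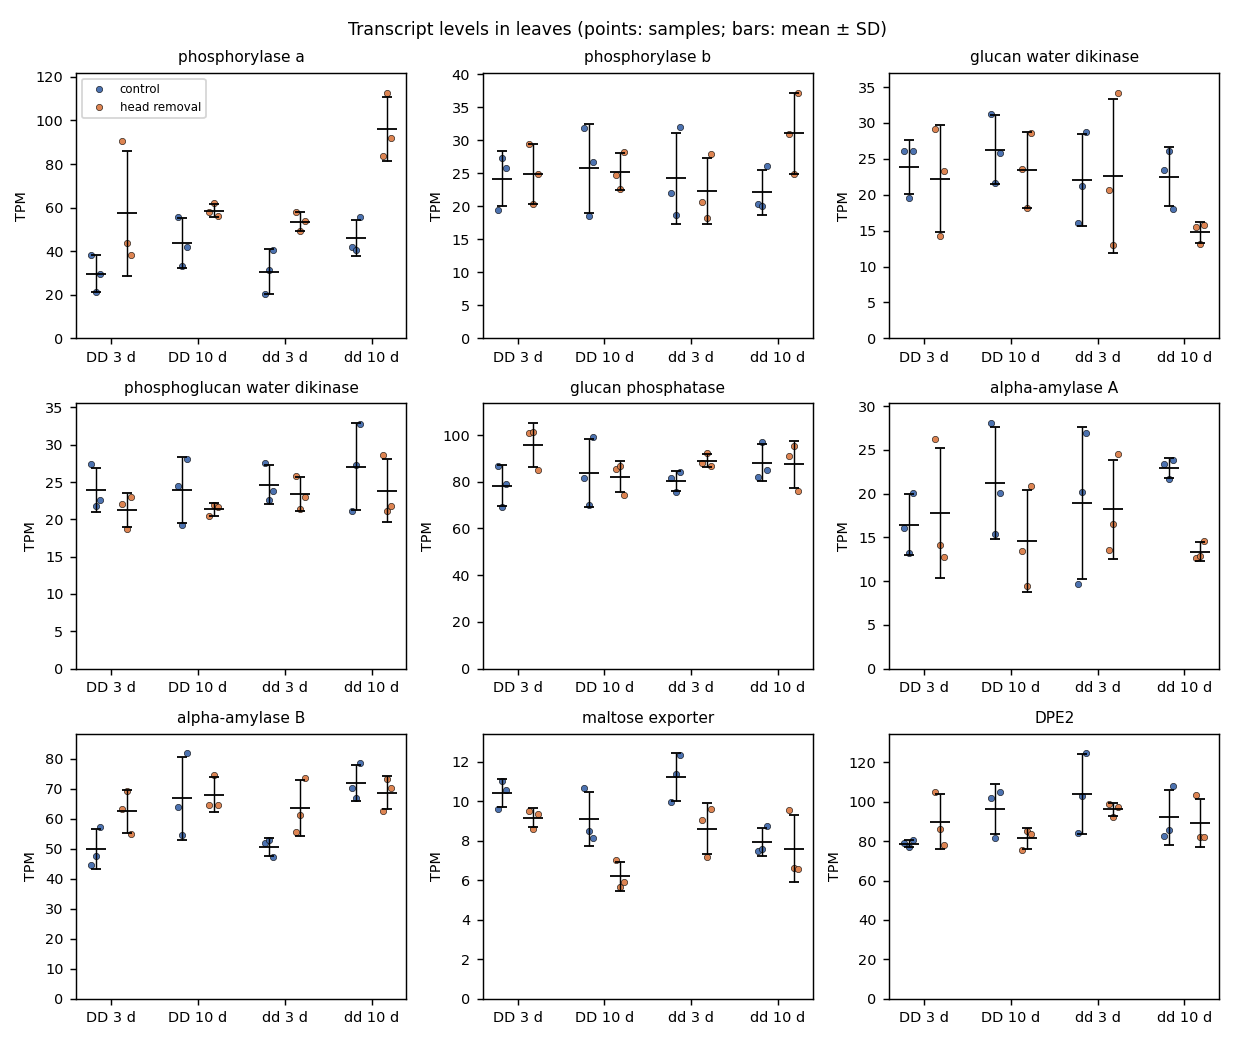
Transcript levels of the 9 genes in leaves, in TPM on axes that start at 0, by genotype and day. Points are samples (blue, control; orange, head removal) and bars are the mean ± SD of 3 samples; head-removed leaves lie above their controls for phosphorylase a in all combinations but *DD* at 3 d.

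Within single combinations 0 members passed in leaves by limma, against 0.781% of all genes in *DD* at 3 d, 0% in *DD* at 10 d, 0.00610% in *dd* at 3 d and 0% in *dd* at 10 d. At an unadjusted p under 0.05 there were 3, 1, 3 and 2 members in those 4 combinations, against 24.4%, 10.1%, 14.5% and 18.0% of all leaf genes. In each of the 4 leaf interactions 0 members passed, as did 0% of all leaf genes, and 1 member, alpha-amylase B by treatment and day, had an unadjusted p under 0.05. The shares of all leaf genes at that level were 8.73% for treatment by day, 3.81% for treatment by genotype, 7.55% for genotype by day and 4.87% for all 3 factors. Genotype moved 0 of the 9 genes in leaves by limma, against 5.44% of all genes, and 0 had an unadjusted p under 0.05, against 28.9%. Of the other starch genes a branching enzyme (*Sobic.003G213800*) was higher in *dd* leaves (0.57 ± 0.12) and at 10 d (0.63 ± 0.12).

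By day, 2 of the 9 rose in leaves, against 17.8% of all genes: phosphorylase a (0.53 ± 0.14, adjusted p = 0.00656) and alpha-amylase B (0.29 ± 0.08, adjusted p = 0.00545). The maltose exporter fell by 0.33 (SE 0.07, adjusted p = 0.00193), against 3.69% of all genes. Median-of-ratios scaling moved the median of all leaf genes by day from 0.09 to -0.01, and under it both rises missed the test (0.42, adjusted p = 0.0258 for phosphorylase a, and 0.18, adjusted p = 0.0555 for alpha-amylase B) while the fall of the maltose exporter still passed. The maltose exporter was thus the member that fell with day in both organs. Beta-amylase *Sobic.001G293800* also fell with day in leaves (-0.71 ± 0.18).

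**Figure D4:**
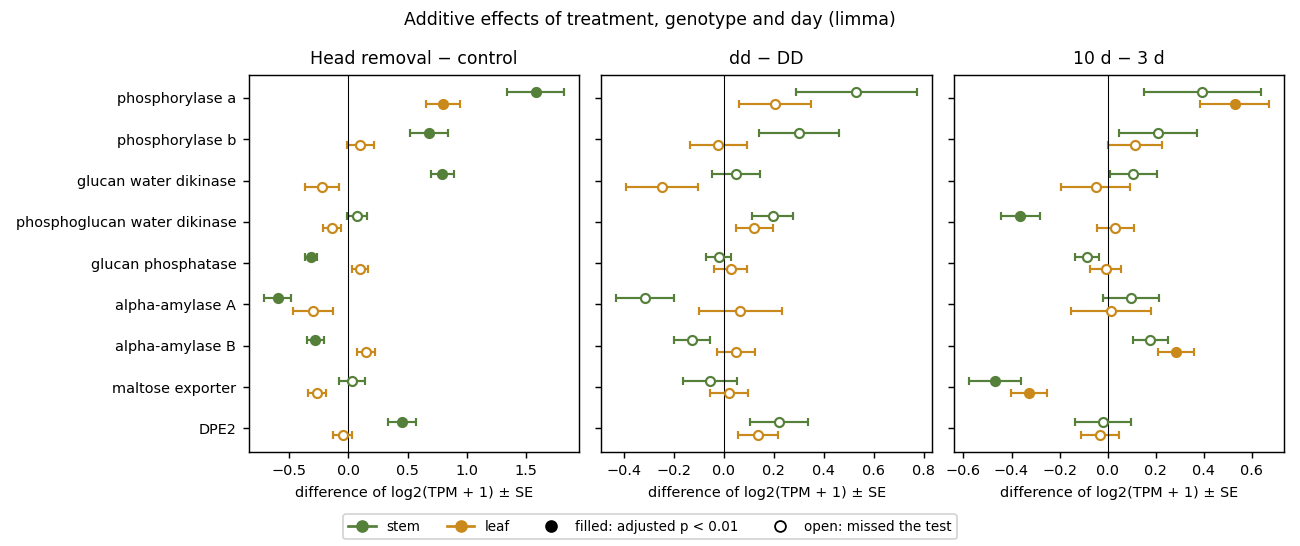
Additive effects of treatment, genotype and day on the 9 genes in stems (green) and leaves (orange), as differences of log2(TPM + 1) ± SE from limma (horizontal axes, which differ in scale). Filled points had an adjusted p under 0.01; no gene passed by genotype, and phosphorylase a passed by treatment in both organs, at 1.58 in stems and 0.80 in leaves.

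The difference between the effect of head removal in stems and in leaves was tested as well, over the 14496 genes in both tables and with the organs taken as independent, since it is not stated whether a stem and a leaf sample came from the same plant. Of the 9 genes 2 had the higher effect in stems, against 10.8% of all genes: glucan water dikinase (stem minus leaf 1.02 ± 0.17, adjusted p = 1.02e-07) and DPE2 (0.50 ± 0.14, adjusted p = 0.00208). Another 2 had the lower effect in stems, against 13.3%: glucan phosphatase (-0.41 ± 0.08, adjusted p = 8.45e-06) and alpha-amylase B (-0.43 ± 0.10, adjusted p = 3.09e-04). The phosphorylases did not pass, with 0.78 ± 0.28 for a (adjusted p = 0.0191) and 0.58 ± 0.20 for b (adjusted p = 0.0128), of which b passed with median-of-ratios scaling (0.61, adjusted p = 0.00691). By genotype 0 members differed between the organs by limma estimates, against 12.9% of all genes, and 0 had an unadjusted p under 0.05, against 35.7%. By day 1 did, against 30.9%, phosphoglucan water dikinase (-0.40 ± 0.11, adjusted p = 0.00172), which missed the test with median-of-ratios scaling (-0.21, adjusted p = 0.116).

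The balance of the phosphorylases can be read as the ratio of their TPM in each sample. In control stems phosphorylase a stood at 0.291 to 0.782 times phosphorylase b (median 0.511, n = 15), and after head removal at 0.563 to 1.72 times (median 0.780, n = 14). The *dd* stems at 10 d after head removal were the only group with every sample above 1, at 1.07 to 1.72, and *DD* head-removed stems reached 1.003 at 3 d and 1.35 at 10 d in single samples. In leaves phosphorylase a was mostly the higher of the pair, at 0.773 to 2.14 times b in controls (median 1.71, n = 12) and 1.53 to 4.51 times after head removal (median 2.57, n = 12). The ratio was not tested.

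**Figure D5:**
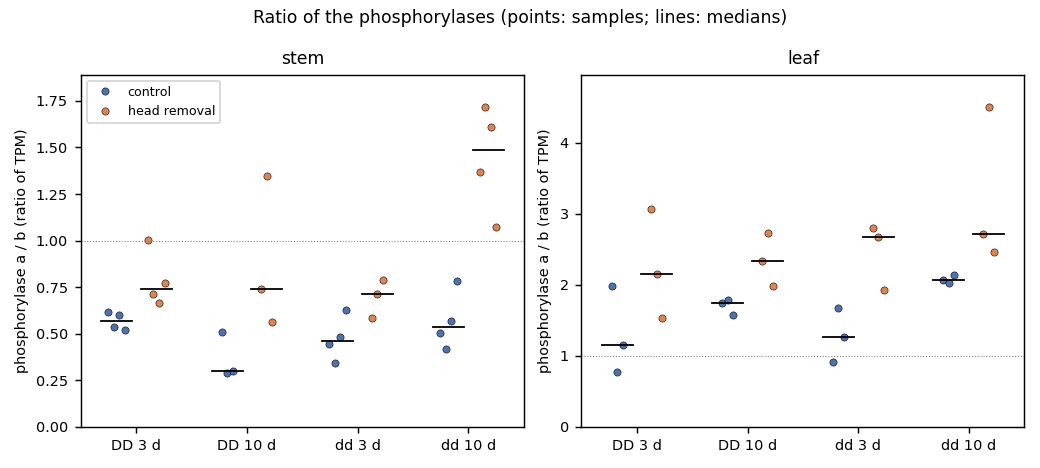
Ratio of phosphorylase a to phosphorylase b, each in TPM, in every stem (left) and leaf (right) sample by genotype and day. Points are samples (blue, control; orange, head removal), lines are group medians, and the dotted line marks equal levels; head-removed *dd* stems at 10 d all lie above it, from 1.07 to 1.72.

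The genes of the stem table closest to phosphorylase a were found by the root mean square difference of centred log2(TPM + 1) over the 29 stem samples, beside a standard deviation of 1.07 for phosphorylase a itself. Isoamylase 1 (*Sobic.007G204600*) was the nearest at 0.306, followed by *Sobic.002G064400* at 0.433 and *Sobic.009G194900* at 0.456, neither described by a function. The nearest to glucan water dikinase, whose own standard deviation was 0.473, were an RNF13-type E3 ubiquitin ligase (*Sobic.006G279900*) at 0.193, a betaine aldehyde dehydrogenase (*Sobic.007G130800*) at 0.225 and a MOSC domain protein (*Sobic.002G297000*) at 0.239. These distances are descriptions without a test, over samples that share the treatments.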

How the data were processed

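RNA from 64 labelled samples was sequenced by the authors, and the labels name FastQC, Trimmomatic, STAR and DESeq2; versions and the genome build are not given in the sources used here. The authors deposited TPM per gene and sample and kept genes that passed 3 TPM in 2 or more samples, which left 16942 stem genes and 16386 leaf genes. Columns were matched to samples by title; 3 stem and 8 leaf samples have no column and were not analysed here, and 0 columns of samples were left over. Sums per sample are 994406 to 996581 TPM in stems and 994771 to 995806 TPM in leaves, and read depth is unknown. Tables of the authors' own comparisons (fold changes, p-values, clusters) were not used.

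Each organ was fitted with limma 3.58.1 in R 4.3.3 (lmFit, eBayes with a variance trend) on log2(TPM + 1), with additive treatment, genotype and day, or with 8 group means for single combinations and interactions. The stem effect minus the leaf effect was divided by its SE (both SE combined in quadrature) for a two-sided normal p. Fold changes are on the log2(TPM + 1) scale and understate those of low genes. Scripts were tested on simulated data. All 9 genes are described; of the other starch genes, up to 4 per organ and factor with the largest change past the test are named, and the 3 genes nearest to phosphorylase a and to glucan water dikinase. Lists came from words in the deposited gene descriptions; a lariat debranching enzyme was taken out and 2 branching enzymes spelt with a hyphen were added after values had been seen. The 9 genes and the lists were chosen with earlier results of these data known. The fits were repeated with median-of-ratios or quantile scaling, with a pseudocount of 0.1 or 3, on genes whose mean reached 10 TPM, without the trend, with robust variances or sample weights, with 8 group means, with a replicate block, at other thresholds and without single samples or the pairs of samples that stood apart. Figures were drawn with matplotlib 3.10.9 in Python 3.11.15.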

Additional observations from a re-analysis of the deposited data

Results flagged for a closer look

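The 9 genes gave 45 sets of 4 stem samples, and in 1 of them a value stood apart by Dixon's test at 95%, which chance does for about 1 group in 20. In *DD* control 3 d replicate 3 phosphorylase b was at 71.4 TPM, while the other 3 samples of that group held 131 to 136 TPM.

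Effects that differed between stems and leaves by the test of the difference were, for head removal, those on glucan water dikinase (stem minus leaf 1.02), DPE2 (0.50), glucan phosphatase (-0.41) and alpha-amylase B (-0.43), and, for day, that on phosphoglucan water dikinase (-0.40). For glucan water dikinase the stem effect was 0.79 and the leaf effect -0.22, for DPE2 0.45 and -0.05, for glucan phosphatase -0.31 and 0.10, for alpha-amylase B -0.28 and 0.15, and for phosphoglucan water dikinase by day -0.36 and 0.03. The leaf effect of these 5 did not pass the test by itself.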

How the results depend on the processing

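No called change of a member reversed under any alternative: of 1083 refitted values of the 27 called changes 989 still passed and 94 did not, with 0 changes of sign. Values that missed the test changed sign in 256 of 6981 fits. For head removal in stems 6 or 7 members passed under every alternative but a required log2 change of at least 1, which left 1. The counts of 6 or 7 include alpha-amylase A, with its limit from the filter, unless a mean of at least 10 TPM was required. With a required log2 change of at least 1, 0 passed by day in stems, and 0 by treatment and 0 by day in leaves. At an adjusted p under 0.05, 1 member passed by genotype in stems and 2 by treatment in leaves. A mean of at least 10 TPM drops the maltose exporter in both organs and alpha-amylase A in stems. With it 6 members passed by treatment and 1 by day in stems. In leaves 2 passed by treatment with sample weights and with quantile normalization, and 1 by day with quantile normalization and with median-of-ratios scaling.

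Leaving out each sample in turn gave 7 members in every fit by treatment in stems, alpha-amylase A included. It gave 5 to 10 calls within stem combinations (9 with all samples) and 5 to 7 differences between stems and leaves (5 with all samples). In leaves it gave 1 to 2 members by treatment and 1 to 3 by day. The 5 calls came without replicate 1 of the stem group *dd* control 10 d, replicate 2 of *dd* head removal 10 d or replicate 1 of *DD* head removal 10 d. In leaves, 2 members by treatment came without *dd* head removal 10 d replicate 1, and 1 by day without replicate 4 of *dd* or *DD* control 10 d, replicate 3 of *DD* control 3 d or replicate 4 of *DD* head removal 3 d. Calls within stem combinations rest on 3 or 4 samples per group: that of phosphorylase b in *dd* at 10 d was lost in 18 of 29 such fits (adjusted p up to 0.0281), that of alpha-amylase A in *dd* at 3 d in 16, that of glucan water dikinase in *DD* at 3 d in 11 and in *dd* at 3 d in 5, those of DPE2 and phosphoglucan water dikinase in *dd* at 10 d in 5 each, and that of glucan phosphatase in *DD* at 10 d in 4. By day in leaves the call of phosphorylase a was lost in 11 of 24 and that of alpha-amylase B in 6.

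Samples with the same replicate number did not deviate together (mean correlation of deviations from group means -0.004 in stems and -0.027 in leaves), so the numbers do not pair samples. With a replicate block 7 members, alpha-amylase A included, passed by treatment in stems, and 6 calls were left within stem combinations. Those lost were glucan water dikinase in *DD* at 3 d, alpha-amylase A in *dd* at 3 d and phosphorylase b in *dd* at 10 d. No other count fitted with the block changed, and the differences between stems and leaves were not fitted with it. The causes of these changes were not tested.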
